A study of Mus musculus with 127 samples.

Results

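The genes described here encode the proteins of the small (40S) ribosomal subunit. They were the symbols of the deposited table that begin with Rps and a digit, together with Rpsa and Fau, leaving out pseudogene symbols (those with -ps) and the kinases of the Rps6k family. This gave 36 genes of the 24320 symbols in the table, each with 1 row, the one with the highest mean value. Rps19bp1 came in through the name rule although its product binds Rps19 and is no ribosomal protein, and it was kept and is named where it matters. The values were RPKM, reads scaled to transcript length and sequencing depth, in 127 single bone marrow cells. The mice were of the C57BL/6J strain, and the labels call the cells erythroblasts, which are nucleated precursors of the red cell. There were 48 Flvcr-deleted cells, 31 EPO-treated cells, which came from wild-type mice given erythropoietin, and 48 wild-type cells. Flvcr is a heme exporter of the cell surface, and erythropoietin is the hormone that drives red cell production. The sources used here name no Cre driver, hormone dose, treatment length, animal or age, so each group counted as 1 sample. The cells of a group are therefore described as they are, every SD is over cells, and no p-value was made. Each cell also had a class letter from A to D and a normalized value of its surface Ter119, an antigen that increases as red cell precursors mature. The letters did not stand for the same Ter119 values in every group. Class B ran from 0.313 to 0.494 in Flvcr-deleted, 0.000640 to 0.197 in EPO-treated and 0.330 to 0.541 in wild-type cells. Class C ran from 0.574 to 0.727, 0.00263 to 0.366 and 0.551 to 0.741 in the same order of groups, and class D from 0.828 to 1, 0.358 to 0.912 and 0.759 to 1.00. EPO-treated cells of a class thus lay below wild-type cells of that class in B and C. Neighbouring classes overlapped in EPO-treated cells, pooled over a larger and a smaller capture chip, but not in the other groups. On the larger chip alone, class A ran from 0.00605 to 0.0326 and B from 0.0387 to 0.197. Class C there ran from 0.208 to 0.366 and D from 0.358 to 0.912, so only C and D overlapped. The smaller chip held 1 cell of class A, 2 of class B and 1 of class C, which had the lowest values of those classes.

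The small subunit binds the messenger RNA and reads its codons against transfer RNA. It has a head, a body and a platform, and its proteins are needed in equal numbers, so their genes are usually expressed together. Their messages, like those of the large subunit, commonly begin with a C followed by a run of pyrimidines (a 5′ terminal oligopyrimidine tract), through which their translation follows growth signals. Red cell precursors depend on a high supply of ribosomes early on and lose them as they mature. In humans, loss of 1 copy of any of several of these genes causes Diamond-Blackfan anaemia, in which red cell precursors fail.

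The sequence around the annotated start sites is shown first, because the pyrimidine run at the start is the feature these genes are known to share. Each window covers 20 bases before and 30 bases from the start, taken from the RefSeq promoter table of build GRCm38.p6 on the strand of the gene and written 5′ to 3′. Capitals mark a C followed by at least 4 bases that are each C or T, beginning within 5 bases of the start. Rps18, Rps10, Rps21 and Rps28 were among the genes with the highest differences given below, Rps15a had the lowest level of the genes that passed a filter on low values in wild-type cells, Fau and Rps6 are taken up by role, and Rps3 had the lowest difference of the detected genes between Flvcr-deleted and wild-type cells.
Fau, chr19:6057927-6057976, plus strand: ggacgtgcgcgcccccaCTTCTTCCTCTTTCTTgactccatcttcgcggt
Rps6, chr4:86857338-86857387, minus strand: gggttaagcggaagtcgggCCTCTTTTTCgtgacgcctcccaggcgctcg
Rps10, chr17:27635215-27635264, minus strand: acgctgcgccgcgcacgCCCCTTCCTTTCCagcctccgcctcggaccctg
Rps18, chr17:33955636-33955685, minus strand: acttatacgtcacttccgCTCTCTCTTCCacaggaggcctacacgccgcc
Rps15a, chr7:118116118-118116167, minus strand: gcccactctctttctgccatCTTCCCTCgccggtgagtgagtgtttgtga
Rps21, chr2:180257359-180257408, plus strand: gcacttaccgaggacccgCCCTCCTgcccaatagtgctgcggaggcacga
Rps28, chr17:33824533-33824582, minus strand: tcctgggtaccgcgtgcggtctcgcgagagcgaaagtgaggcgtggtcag
Rps3, chr7:99483680-99483729, minus strand: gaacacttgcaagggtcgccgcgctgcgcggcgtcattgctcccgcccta
The run was 16 bases long at Fau, 13 at Rps10, 11 at Rps18, 10 at Rps6, 8 at Rps15a and 7 at Rps21, and in the windows of Rps28 and Rps3 no such run began within 5 bases of the start. Of the 36 genes, 27 had an entry in that table, and 14 of those (51.9%) held the run, against 5718 of 27025 symbols with an entry (21.2%). Only the strand of the gene was searched, and a match is a description of the letters, not of a start site used in these cells.

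Rps27 and Rps27rt are shown for another reason. Their annotated transcripts, 345 and 374 bases long in GENCODE vM21, were identical over all 341 aligned bases, and capitals here mark the stretch of 29 bases that the start windows share.
Rps27, chr3:90213619-90213668, minus strand: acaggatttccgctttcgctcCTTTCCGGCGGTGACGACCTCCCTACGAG
Rps27rt, chr9:114982710-114982759, minus strand: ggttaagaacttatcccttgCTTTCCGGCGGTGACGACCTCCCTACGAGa
The values of Rps27 and Rps27rt lay within 0.05 of each other on the log2 scale in 127 of 127 cells, with a largest gap of 0.0042. Reads of these 2 genes therefore cannot be told apart, and the pair counts as 2 in counts over the 36 genes while holding 1 measurement. In counts over the body and platform or over the Diamond-Blackfan anaemia genes Rps27 alone was counted.

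The cells differed in depth. Detected genes (RPKM of at least 1) had a median of 1196.5 per cell in Flvcr-deleted, 1385 in EPO-treated and 2199 in wild-type cells of classes B to D. Read depth was worked out from the most frequent low value of RPKM times annotated transcript length, taken as that of 1 read. It had a median of 3.52 M (M for 1e6 reads) in Flvcr-deleted and 4.05 M in wild-type cells of these classes. The EPO-treated values were rounded to 2 decimals, so their depth is unknown and any difference in their processing cannot be told apart from the treatment. Each group was also run on its own capture chips, so chip and group cannot be told apart. At least 3 of 9 erythroblast markers in the table were detected in every cell of classes B to D in all groups, but their levels moved with the groups. On the scale of the group differences below, the 8 that passed the filter on low values had a median of -2.36 in Flvcr-deleted minus wild-type cells, with 6 called lower. In EPO-treated minus wild-type cells it was -1.77, with 5 called lower. All genes that passed that filter had medians of -1.08 and -0.99 in these comparisons, with 48.3% and 42.0% called lower. The erythroid transcription factor Gata1 was at -4.99 and -4.16 in these comparisons. The part of these shifts in the small-subunit differences was not tested. In wild-type class A cells the erythroid genes Alas2, Slc4a1 and Epb4.2 were undetected in all 6 cells. Differences between groups were therefore taken over classes B, C and D and averaged with equal weight, and class A is described by itself. Flvcr1, listed as Mfsd7b, was detected in 0 of 48 Flvcr-deleted, 0 of 31 EPO-treated cells and 1 wild-type cell of 48, too few for a check of the deletion.

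Most of these genes were expressed at high levels in every group, as the map of mean levels shows. In wild-type cells of classes B to D, levels as log2(RPKM + 1) averaged over classes ran from 8.81 for Rps19 down to 3.27 for Rps15a among the genes detected widely. Rps19, the gene most often mutated in Diamond-Blackfan anaemia, led the order, followed by Rps3a1, a platform protein next to the initiation factor eIF3, also at 8.81. Rps18, a head protein that bridges to the large subunit, came next at 8.56, and Rps14, a platform protein whose gene is lost in a human myelodysplasia, at 8.49. The SD over wild-type class C cells was 2.75 for Rps19 and 1.65 for Rps3a1, so these neighbours in the order do not differ beyond the spread over cells. The lowest were Rps15a, a protein of the body and platform, and Rps27l, a close relative of Rps27, at 4.51. Rps19bp1 followed at 0.41 and Rps4l, listed under a non-coding RefSeq identifier, at 0 in every cell of all groups. These 2 were the only genes of the 36 that missed the filter of a mean log2 level of 1 over all cells, which 2540 genes of the table passed. The order rests on the transcript lengths the authors divided by, which the sources used here do not give.

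**Figure D1:**
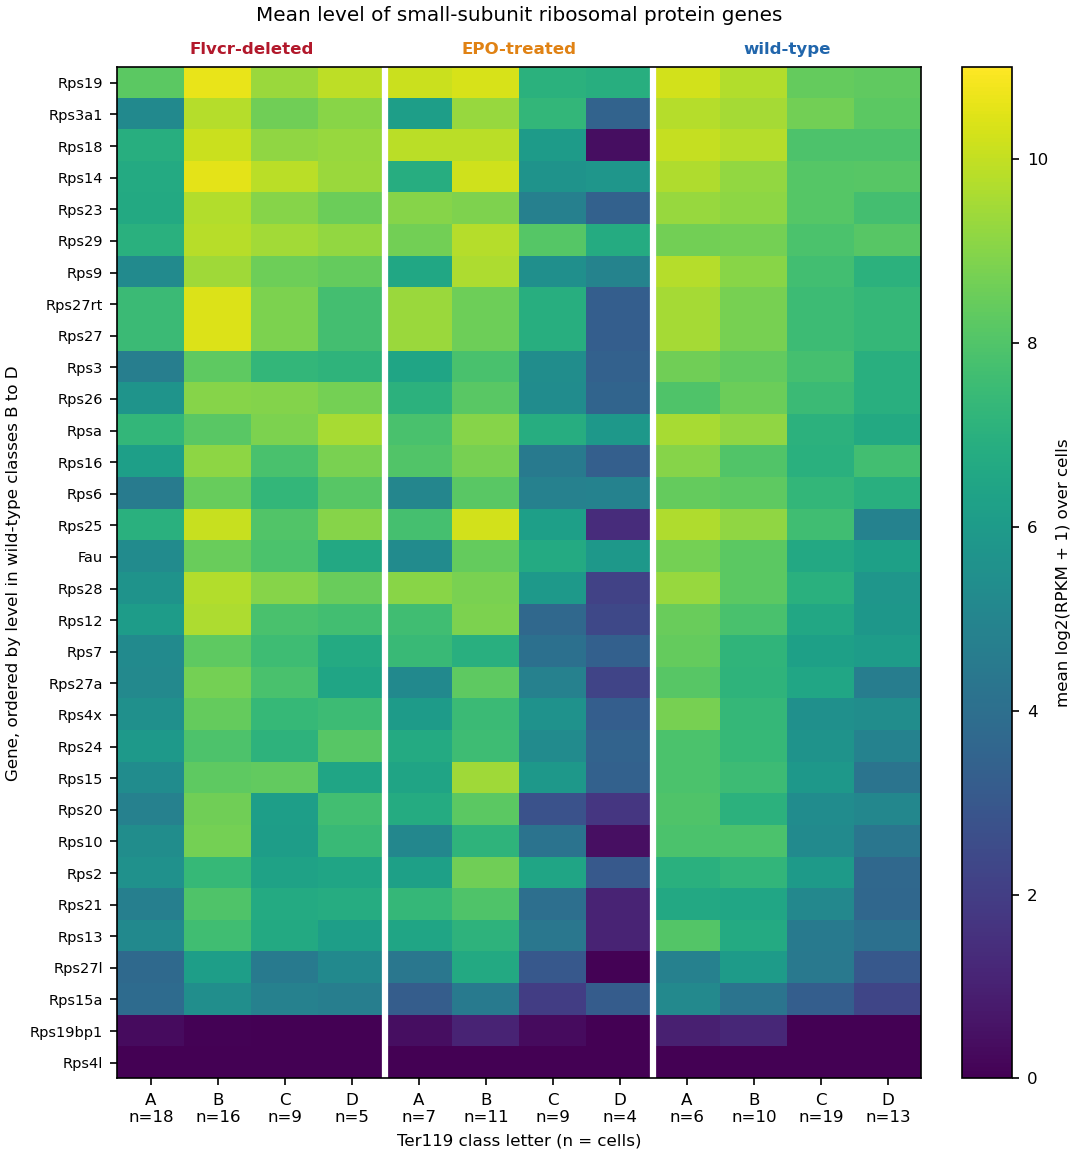
Mean log2(RPKM + 1) of 32 of the 36 genes (rows, ordered by level in wild-type cells) in each class letter of Flvcr-deleted, EPO-treated and wild-type cells, with the number of cells under each column. EPO-treated class D is dark for many genes (Rps18 at 0.42), Flvcr-deleted class D is not (Rps18 at 9.29), and Rps4l is at 0 throughout.

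The part of the non-globin signal taken by these genes was larger in Flvcr-deleted cells. Per cell, the share is their summed RPKM over that of all genes outside the globins, which does not depend on how a cell was scaled. In class B it had a median of 16.5% in Flvcr-deleted cells (4.45% to 26.3%), 12.2% in EPO-treated cells (7.14% to 15.0%) and 7.22% in wild-type cells (1.86% to 10.2%). Class C medians were 14.1% in Flvcr-deleted cells (3.57% to 20.6%), 5.08% in EPO-treated cells (1.24% to 12.0%) and 5.15% in wild-type cells (0.604% to 10.4%). In class D the 5 Flvcr-deleted cells held 3.37%, 14.4%, 17.7%, 13.3% and 10.4%, the 4 EPO-treated cells 0.806%, 4.70%, 1.94% and 1.30%, and the 13 wild-type cells had a median of 2.72% (0.465% to 8.35%). The ranges overlapped, but 13 of 16 Flvcr-deleted cells of class B, 6 of 9 of class C and 4 of 5 of class D lay above every wild-type cell of their class.

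**Figure D2:**
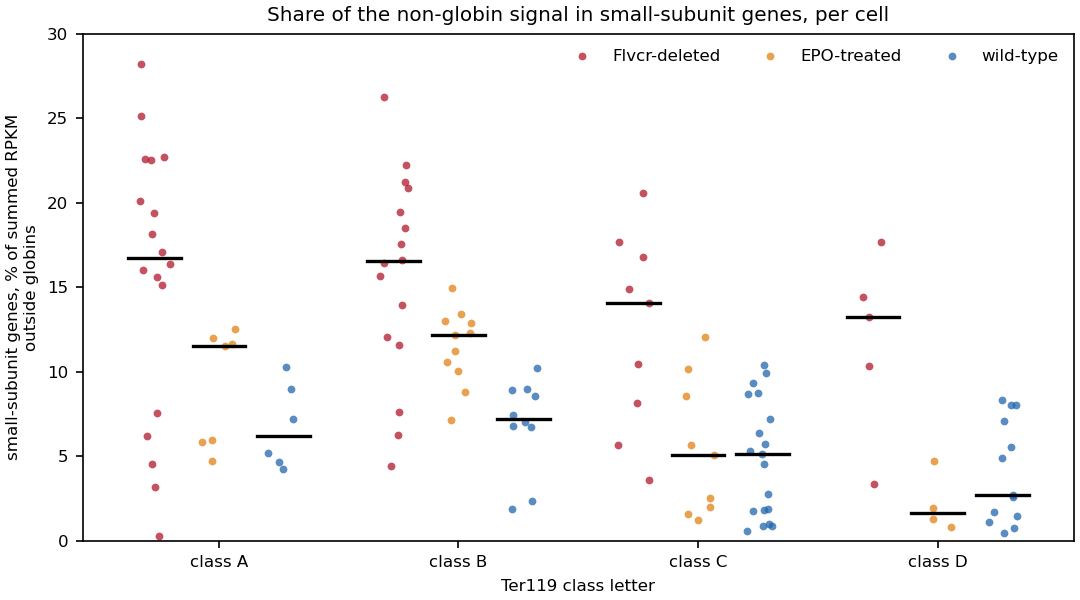
Share of the summed RPKM outside globins that fell in the 36 small-subunit genes, 1 point per cell, by Ter119 class and group, with bars at medians. Flvcr-deleted medians stay between 13.3% and 16.7%, EPO-treated medians go down to 1.62% in class D, and wild-type medians lie at or below 7.22%.

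Averaged over the class medians, the share was 14.6% in Flvcr-deleted, 6.30% in EPO-treated and 5.03% in wild-type cells, a ratio of Flvcr-deleted to wild-type of 2.91. That ratio grew with class, with 2.29 in class B, 2.73 in class C and 4.87 in class D. With globins kept in the sum the shares were 2.08% in Flvcr-deleted, 1.95% in EPO-treated and 2.11% in wild-type cells, and the ratio of Flvcr-deleted to wild-type was 0.987. Averaged over classes B to D, the higher share in Flvcr-deleted cells therefore holds for the signal outside globins, not for the whole signal. With globins kept, the classes did not go the same way. The class D median was 0.961% in Flvcr-deleted cells (0.130% to 4.26%) and 0.399% in wild-type cells (0.0468% to 3.82%), with overlapping ranges. In class C it was lower in Flvcr-deleted cells, at 1.12% against 1.72%, and in class B the medians were close. Globins took a median of 90.7% of the summed values in Flvcr-deleted, 64.9% in EPO-treated and 69.6% in wild-type cells of classes B to D. Their part in levels as deposited was not tested. In wild-type cells of these classes the share went with the number of detected genes (Spearman's rho 0.91 over 42 cells of 1 chip), and in Flvcr-deleted cells the same rho was 0.21 over 30 cells.

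Setting Flvcr-deleted against wild-type cells asks how transcript levels go with loss of the heme exporter within a class letter. The small-subunit genes were higher in Flvcr-deleted cells while most other genes were lower. Their median class-weighted difference of log2 levels was 1.19, against -1.08 over all 2540 genes compared. A gene was called higher or lower where this difference was 1 or more in size and its sign agreed between classes B, C and D. By that rule 22 of 36 were called higher and 0 lower, where 3.74% of all genes compared were called higher and 48.3% lower. The median difference was 0.75 in class B, 1.25 in class C and 1.78 in class D, against -1.29, -1.13 and -0.79 over all genes compared. In class D 34 of 36 genes were above 0 and 0 below, and the share of all genes above 0 there was not counted. Averaged over the 3 classes, most of the 36 were above 0. Rps3, at -0.12, and Rps19bp1, at -0.40, lay below 0, and Rps4l was at 0. These calls depend on the scale. With every cell set to 1 sum of RPKM the median was 0.35, beside -1.32 over all genes compared, and 2 genes were called higher. On that scale 7 genes were below 0, among them Rps3, Rps3a1, Rps6, Fau, Rps23 and Rps19bp1, and 28 were above. With 1 sum outside globins 27 were called higher. Shares of all genes called on these scales are not given here, so these counts show only how calls within the set moved.

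**Figure D3:**
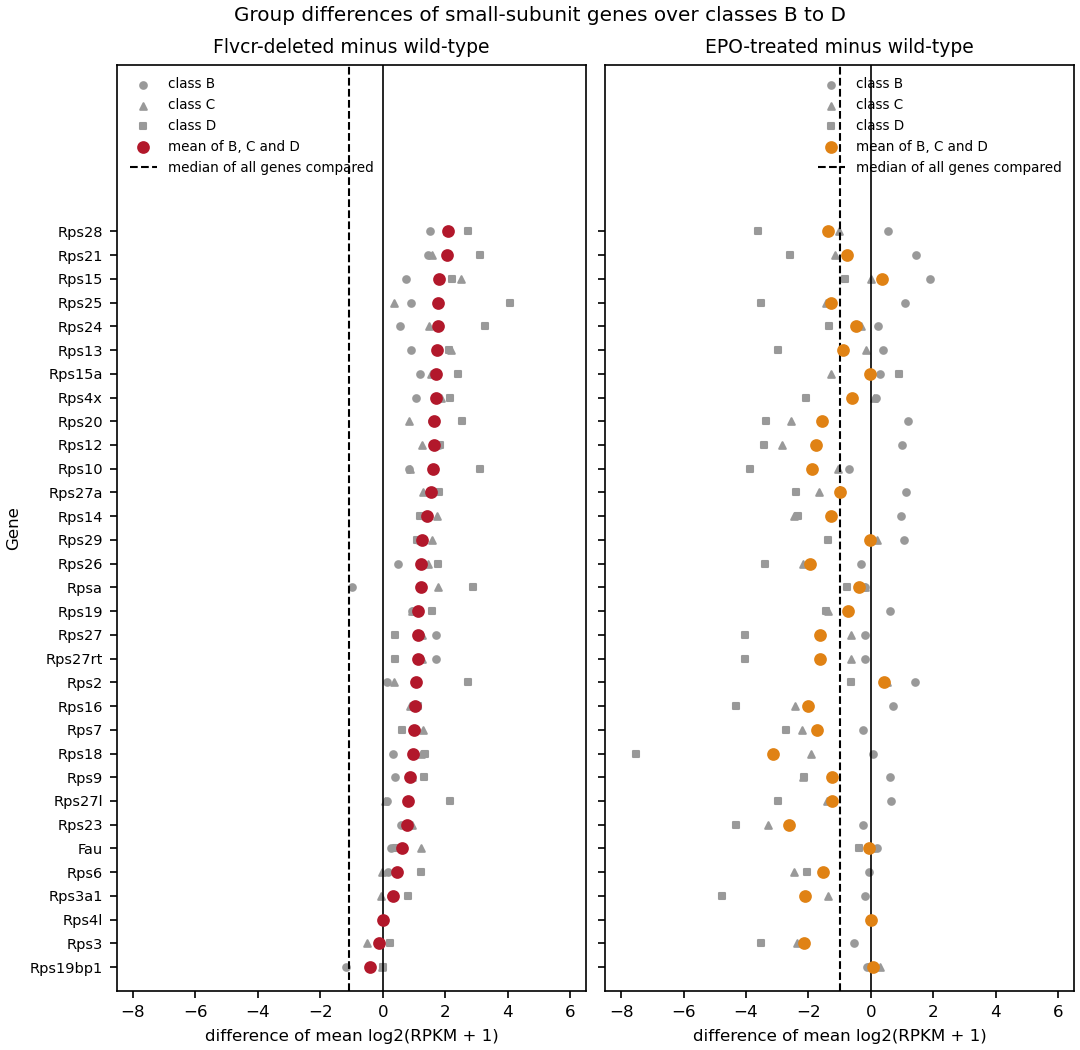
Difference of mean log2(RPKM + 1) for each of 32 genes in classes B, C and D (grey) and their mean (coloured), for Flvcr-deleted minus wild-type (left) and EPO-treated minus wild-type (right), with the median of all genes compared dashed. On the left most genes lie right of 0 (median 1.19), and on the right classes C and D lie mostly left of 0 while class B lies on either side.

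Head proteins are described first. Of 14 head genes, 12 were called higher in Flvcr-deleted cells, where 22 of the 36 genes and 3.74% of all genes compared were. The median difference of the 14 was 1.58. Rps28, which lies near the exit of the messenger RNA, differed by 2.09. Its class D log2 levels were 5.66, 8.92, 10.47, 9.59 and 7.84 in Flvcr-deleted cells, against a median of 7.66 in wild-type cells (0 to 9.30). Rps28 was at or above 1 RPKM in all 5 of these Flvcr-deleted cells and in 10 of 13 wild-type cells. Rps25, a head protein known for its part in translation from viral internal entry sites, differed by 1.78, most of it in class D. There it had log2 levels of 6.13, 9.29, 10.48, 8.91 and 10.11 in Flvcr-deleted cells and was detected in 7 of 13 wild-type cells, with a median of 6.02 (0 to 10.02). Rps15, whose tail reaches towards the decoding site, differed by 1.82.

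Rps3, a head protein at the entry of the messenger RNA that also has a known role in DNA repair, stood at the other end with -0.12. Its class D log2 levels were 7.37, 6.14, 9.30, 5.74 and 7.14 in Flvcr-deleted cells and had a median of 6.81 in wild-type cells (2.54 to 9.21). In class C its median was 7.83 in Flvcr-deleted (3.72 to 9.52) and 7.52 in wild-type cells (5.33 to 9.82). The 2 groups overlapped over nearly their whole ranges for this gene. The other head gene that was not called, Rps18, differed by 0.97.

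Of 18 genes of the body and platform, 9 were called higher in Flvcr-deleted cells, where 22 of the 36 genes and 3.74% of all genes compared were. The median difference of the 18 was 1.09. Rps21, which sits beside Rpsa on the back of the subunit, differed by 2.05. In class D it had log2 levels of 3.80, 7.00, 8.40, 6.92 and 7.89 in Flvcr-deleted cells, against a median of 4.81 in wild-type cells (0 to 8.57), so every Flvcr-deleted cell lay inside the wild-type range. Rps24, a body protein mutated in Diamond-Blackfan anaemia, differed by 1.78. Its class D log2 levels were 6.43, 8.27, 9.05, 8.51 and 8.46 in Flvcr-deleted cells and had a median of 5.83 in wild-type cells (0 to 8.37). Here 3 of 5 Flvcr-deleted cells lay above all wild-type cells.

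Among the lowest differences of the body and platform were 0.34 for Rps3a1 and 0.46 for Rps6. Rps6 is the protein that S6 kinase phosphorylates downstream of mTOR. Its class D log2 levels were 6.37, 7.42, 8.82, 9.57 and 8.48 in Flvcr-deleted cells and had a median of 7.65 in wild-type cells (2.71 to 9.17). Rps14 differed by 1.42 and was called higher, with differences of 1.31, 1.75 and 1.20 in classes B, C and D. Rpsa, also known as the laminin receptor, differed by 1.23 and was not called, since its class B difference was -0.98 and those of classes C and D were 1.76 and 2.90. In class D its log2 levels were 7.52, 10.14, 10.77, 10.62 and 8.77 in Flvcr-deleted cells, against a median of 8.06 in wild-type cells (0 to 10.56).

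Genes mutated in human Diamond-Blackfan anaemia make up 11 of the 36. Of these, 10 were called higher in Flvcr-deleted cells, where 22 of all 36 and 3.74% of all genes compared were. Differences of the 10 included 1.14 for Rps19, 1.23 for Rps26, 1.61 for Rps10, 1.27 for Rps29, 1.12 for Rps27, 1.71 for Rps15a and 1.65 for Rps20. Rps7 was just outside the threshold, at 0.998. Rps16, a head gene that is not among these 11, was just inside, at 1.03. Rps19 had class D log2 levels of 7.28, 10.65, 10.97, 10.44 and 10.12 in Flvcr-deleted cells, against a median of 8.90 in wild-type cells (4.90 to 10.46). Only 2 of these 5 Flvcr-deleted cells lay above the highest wild-type cell.

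The 2 genes whose products are made as fusions differed unequally. Rps27a, made fused to ubiquitin, was 1.55 higher in Flvcr-deleted cells and was called. Fau, made fused to a ubiquitin-like protein, differed by 0.63 and was not. Rps27l differed by 0.80, with Flvcr-deleted class D log2 levels of 0, 0, 9.83, 8.54 and 7.68, against a wild-type median of 2.64 (0 to 7.71). Rps4x, the X-linked form of a body protein, differed by 1.69 and was called higher.

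Levels were also taken relative to the median of the 36 genes in the same cell, which removes what all of them share, as the plot of relative levels shows. On this scale Rps3 was 1.50 lower in Flvcr-deleted than in wild-type cells, with -0.97, -1.90 and -1.62 in classes B, C and D. Rps3a1 was at -1.04, Rps6 at -0.92 and Fau at -0.75, each with the same sign in all 3 classes. Rps28 was at 0.71 and Rps21 at 0.68, also with the same sign in each class. The genes thus did not differ by equal amounts, but each of these values rests on the same 30 Flvcr-deleted and 42 wild-type cells. Rps4l, at 0 in every cell, was at -1.38 on this scale, so a value also moves with the median of the 36 genes. Across the 34 genes that passed the filter, the class-weighted difference had a Spearman's rho of -0.10 with annotated transcript length. These points share their cells, and the lengths come from another annotation than the authors'.

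**Figure D4:**
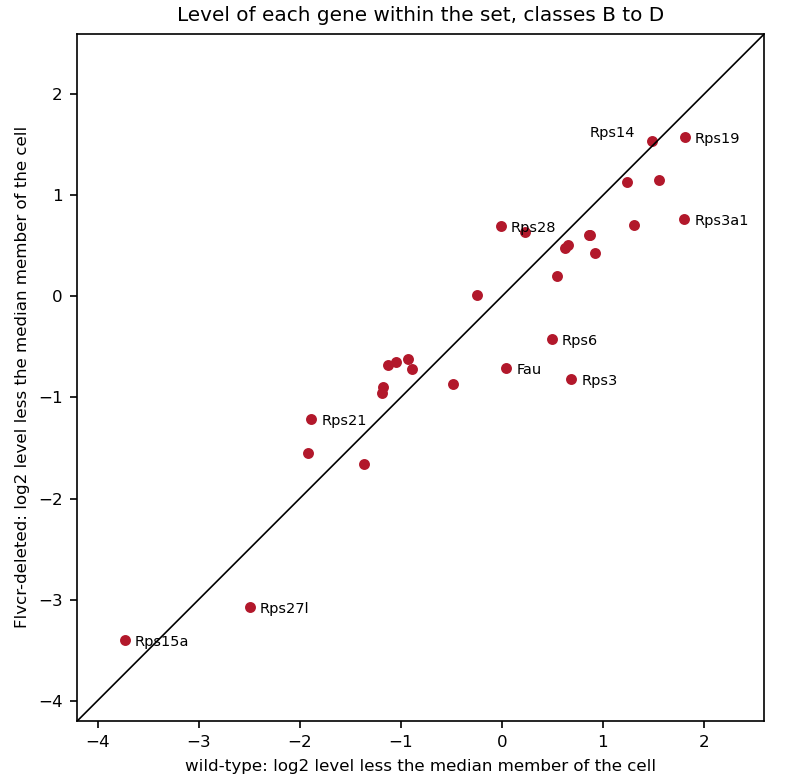
Log2 level of each of 32 genes less the median of the 36 genes in the same cell, averaged over classes B to D, in wild-type (x axis) and Flvcr-deleted cells (y axis), without Rps4l and Rps19bp1. The line marks equal values, with Rps3, Rps3a1 and Rps6 below it and Rps28 and Rps21 above.

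In class A the difference of levels had the opposite sign, and 9 cells decided it, while the share outside globins had the same direction as in the other classes. That share had a median of 16.7% in Flvcr-deleted and 6.19% in wild-type class A cells, a ratio of 2.70, and 13 of 18 Flvcr-deleted cells lay above every wild-type cell. For levels, over all class A cells the median difference of Flvcr-deleted minus wild-type was -2.73, with 35 of 36 genes below 0, while all genes compared had a median of -1.66. The Flvcr-deleted class A labels carry a suffix, a or d, which the sources used here do not explain. The 9 cells of suffix d had a median of 10 small-subunit genes detected (2 to 29), 343 detected genes in all and 0.223 M reads. The 9 cells of suffix a had a median of 34 small-subunit genes detected (28 to 35), 1381 detected genes and 1.58 M reads. Without the suffix d cells the class A median difference was 1.18. Depth moved with the suffix, and its part in the class A values was not tested. The share outside globins had medians of 15.1% in suffix d (0.259% to 28.2%) and 20.1% in suffix a cells (7.54% to 25.1%). Granulocyte and monocyte markers also moved with class A, since at least 3 of 12 were detected in 1 of 18 Flvcr-deleted, 2 of 7 EPO-treated and, in the wild type, 2 of 6 cells, against 0 cells of classes B to D in every group.

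Setting EPO-treated against wild-type cells asks what the hormone goes with in mice that carry no deletion. It shares the wild-type cells with the comparison above. In class B the small-subunit genes had a median difference of 0.34, with 23 of 36 genes above 0, and in classes C and D medians of -1.38 and -2.50. All genes compared had medians of -0.68, -1.13 and -1.13 in classes B, C and D, and their share above 0 in class B was not counted. The class-weighted median was -1.23, against -0.99 over all genes compared. Of the 36 genes, 10 were called lower and 0 higher, where 42.0% of all genes compared were called lower and 0.512% higher. The share of genes called lower was therefore not above that of other genes. Without class B the median was -2.21 and 26 were called lower. With cells of 1000 to 2000 detected genes alone it was 1.38 with 13 called higher. That range held 5, 5 and 2 EPO-treated against 2, 8 and 8 wild-type cells in classes B, C and D. Shares of all genes called under these settings are not given here, so these counts cannot be read as particular to the small-subunit genes.

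The lowest differences of EPO-treated minus wild-type cells were -3.12 for Rps18, -2.62 for Rps23, -2.15 for Rps3, -2.11 for Rps3a1 and -2.01 for Rps16. Rps18 was 0, 1.70, 0 and 0 on the log2 scale in the 4 EPO-treated class D cells, against a median of 8.04 in wild-type cells (0 to 10.90). Its class B median was 11.54 in EPO-treated (2.10 to 12.19) and 10.66 in wild-type cells (3.22 to 11.43), and in class C it was 4.96 in EPO-treated (0 to 11.57) and 8.89 in wild-type cells (0 to 11.58). The groups thus overlapped in every class, least in class D. Rps23, which lies at the decoding site, had class D log2 levels of 0, 0, 7.13 and 6.58 in EPO-treated cells and a median of 7.60 in wild-type cells (4.57 to 10.36). Rps16, a head protein, was at 0.14, 4.64, 3.39 and 5.11 in EPO-treated class D cells, against a median of 7.99 in wild-type cells (4.84 to 9.78). For Rps16 only 1 of the 4 EPO-treated cells reached the wild-type range.

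The highest differences of EPO-treated minus wild-type cells were 0.42 for Rps2, which lies at the messenger RNA entry, 0.36 for Rps15 and 0.06 for Rps19bp1, followed by Rps4l at 0 and Rps15a at -0.03. Rps29, a small zinc-binding protein of the head, differed by -0.04 and was detected in all 4 EPO-treated class D cells, at 6.77, 6.59, 6.37 and 7.31, against a wild-type median of 8.09 (6.07 to 9.51). Relative to the median of the 36 genes in the same cell, Rps2 was at 1.93, Rps15 at 1.86 and Rps29 at 1.47, and Rps23 at -1.12, each with the same sign in classes B, C and D. Rps4l, at 0 in every cell, was at 1.50 on this scale and Rps19bp1 at 1.56, without the same sign in each class. A positive value can thus come from a lower median of the 36 genes alone. Not taken relative to the set, Fau differed by -0.05, Rpsa by -0.39, Rps27a by -0.98, Rps14 by -1.28 and Rps6 by -1.52. Of the 11 Diamond-Blackfan anaemia genes, 4 were called lower (Rps27, Rps7, Rps10 and Rps26), a share not above the 42.0% of all genes compared, with differences over the 11 from -1.96 to -0.03.

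Flvcr-deleted cells were also set against EPO-treated cells, with which they share no cell, though each group also stands in a comparison above. The median difference was 2.49, against -0.12 over all genes compared, and 24 of 36 genes were called higher in Flvcr-deleted cells and 0 lower, where 7.76% of all genes compared were called higher and 8.86% lower. By class the median was 0.33 in B, 2.39 in C and 4.33 in D. Without class D it was 1.39. With every cell set to 1 sum of RPKM 7 genes were called higher, and without 4 Flvcr-deleted class B cells that had the heme synthesis gene Alas2 at 0, 12 were. Shares of all genes called under these settings are not given here, so these counts show only how calls within the set moved. The highest differences were 4.09 for Rps18, 3.49 for Rps10, 3.45 for Rps28, 3.40 for Rps12 and 3.39 for Rps23. Rps10, a head protein mutated in Diamond-Blackfan anaemia, had class D log2 levels of 7.29, 8.15, 9.57, 3.39 and 8.77 in Flvcr-deleted cells, against 0, 0, 1.75 and 0 in EPO-treated cells. Rps18 had 5.62, 9.35, 11.67, 9.71 and 10.10 in Flvcr-deleted class D cells, against 0, 1.70, 0 and 0 in EPO-treated cells. Both genes were picked for their high differences. Their class D cells did not overlap between the groups, and how often other genes did the same was not counted. The lowest differences were -0.45 for Rps19bp1, 0 for Rps4l, 0.65 for Rps2, 0.67 for Fau and 1.31 for Rps29.

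Within each group, class D was set against class B to follow the genes along Ter119. In EPO-treated cells the median difference of class D minus class B was -5.34, against -1.36 over all genes compared, and 35 of 36 genes were at least 1 lower, where 58.3% of all genes compared were. Wild-type cells had a median of -1.96, against -0.90, with 33 of 36 at least 1 lower, where 46.1% of all genes compared were. None of the 36 was at least 1 higher in either group, where 10.9% of all genes compared were in EPO-treated and 5.39% in wild-type cells. Flvcr-deleted cells had a median of -1.07, against -0.43, with 19 of 36 at least 1 lower, where 30.6% of all genes compared were. Class D cell 12 decided much of the Flvcr-deleted value: its share outside globins was 3.37%, and without it the median was -0.20, beside -0.31 over all genes. Without the 4 class B cells with Alas2 at 0 it was -0.54. The difference was lower in EPO-treated cells than in either other group for 33 of 35 genes other than Rps4l, and above the wild-type one in Flvcr-deleted cells for 29 of 35. The medians over all genes compared stood in the same order of groups. How many of those genes did so was not counted, so this order cannot be read as particular to the small-subunit genes.

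**Figure D5:**
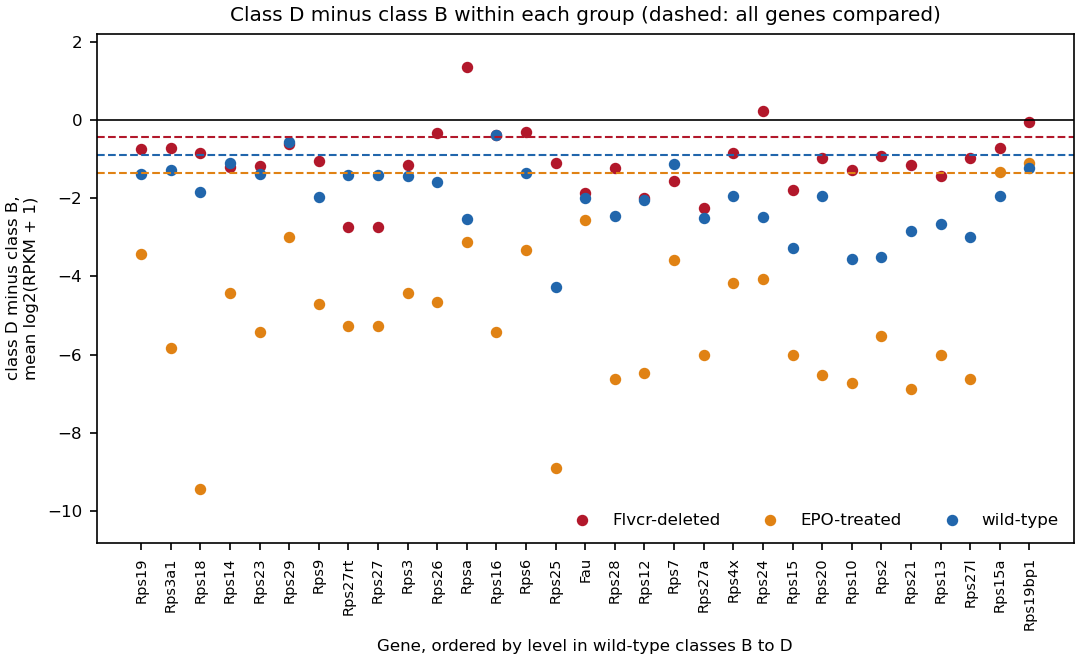
Class D minus class B difference of mean log2(RPKM + 1) for each of 32 genes less Rps4l (x axis, ordered by level in wild-type cells) in Flvcr-deleted, EPO-treated and wild-type cells, with dashed lines at the median of all genes compared in each group. EPO-treated points are lowest for most genes (median -5.34), and Rpsa in Flvcr-deleted cells, at 1.36, is the highest point.

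Rpsa was the 1 gene at least 1 higher in class D than in class B of Flvcr-deleted cells, by 1.36, where 13.5% of all genes compared were. It was followed by Rps24 at 0.23 and Rps4l at 0, and the lowest were Rps27rt at -2.73, Rps27 at -2.72 and Rps27a at -2.26. In EPO-treated cells Rps18 differed by -9.43, Rps25 by -8.89 and Rps21 by -6.89. Rps25 had class D log2 levels of 0, 5.53, 0 and 0 and a class B median of 10.56 (7.88 to 11.35). The highest there were Rps4l at 0, Rps19bp1 at -1.09 and Rps15a at -1.34. In wild-type cells Rps25 differed by -4.27 and Rps10 by -3.55, among the lowest, and the highest were Rps4l at 0, Rps16 at -0.38 and Rps29 at -0.57. Rps25 was detected in 10 of 10 wild-type class B cells but 7 of 13 of class D.

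The Ter119 value itself gave the same direction within a chip. The class letters follow that value, so this is no separate support for the differences between classes. Over classes B to D the share outside globins had a Spearman's rho with normalized Ter119 of -0.31 in Flvcr-deleted (30 cells), -0.73 in EPO-treated (21 cells of the larger chip) and -0.32 in wild-type cells (42 cells). Of the 34 genes that passed the filter, 33 in Flvcr-deleted and all 34 in EPO-treated and wild-type cells had a rho below 0. How many of all genes compared had one was not counted, so these counts cannot be read as particular to the small-subunit genes. With class A included this held for 6 of 34 in Flvcr-deleted, 33 in EPO-treated and 34 in wild-type cells, with median rho of 0.09, -0.34 and -0.36 in that order, so in Flvcr-deleted cells the direction rests on leaving out class A. These genes share their cells and depth, and detected genes had a rho with Ter119 of -0.09, -0.35 and -0.34 in Flvcr-deleted, EPO-treated and wild-type cells.

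Other genes of translation were described beside them. The large-subunit genes, 50 of 54 passing the filter, had a median difference of 1.17 between Flvcr-deleted and wild-type cells, close to the 1.19 of the small subunit. Of these 50, 32 were called higher and 2 lower, where 3.74% and 48.3% of all genes compared were. For EPO-treated minus wild-type cells their median was -1.05, beside -0.99 over all genes compared, with 14 called lower, a smaller share than the 42.0% of all genes. For Flvcr-deleted minus EPO-treated cells it was 2.12, with 30 called higher, where 7.76% of all genes compared were. The 19 initiation factors that load the small subunit had a median difference of -0.81 between Flvcr-deleted and wild-type cells, beside -1.08 over all genes compared. Of them 9 were called lower and 0 higher, a share called lower close to the 48.3% of all genes. Eif3h, a subunit of the factor eIF3, was at -2.93 and Eif3a, its largest subunit, at -2.63, against 0.23 for Eif3k. Of 18 assembly factors of the small subunit, 3 passed the filter, with Riok1 at -1.54, Emg1 at -1.66 and Wbscr22 at -0.77. Of 10 genes of the mTOR pathway and of regulators of pyrimidine-tract messages, 3 passed, with Eif4ebp1, the translation repressor 4E-BP1, at 1.20, Pabpc1 at -0.30 and Rheb at -1.54. Gnb2l1 (Rack1), a scaffold protein of the small subunit that the name rule does not reach, differed by 1.20 between Flvcr-deleted and wild-type cells and was not called, with -0.27 in class B. It was at 0 in all 4 EPO-treated class D cells and had a median of 5.83 in wild-type ones (0 to 9.44).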

How the data were processed

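Single cells were captured on a C1 microfluidic system, imaged for Ter119 and amplified with SMART-Seq chemistry before Nextera XT library preparation, per the labels' protocols. The authors deposited 1 table of RPKM values with 34898 transcript rows and 1 column per cell; 4 columns matched no sample and were not used. Per the submitters' processing notes, TopHat2 2.0.9 and the mm9 build were used. How reads were counted, which transcript lengths were divided by and what was done with reads matching several genes, on which closely related ribosomal genes depend, is not given in the sources used here.

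For each symbol the row with the highest mean was used, and values were taken as log2(RPKM + 1), which understates differences of genes near 0. Genes were compared where this averaged 1 or more across the cells used. Differences of class means were averaged over classes B, C and D. Because each group counted as 1 sample, no test was run. The genes named were the 5 highest and 5 lowest in each comparison, the 3 highest and lowest of class D minus class B, the 4 at each end of the wild-type order, the Diamond-Blackfan anaemia genes and a few by role; 4 genes are counted but not reported here by name or in the figures. The members and gene lists were chosen with earlier results of these data known. Transcript lengths and the Rps27 pair come from GENCODE vM21, aligned with Biopython 1.88, and start sites from RefSeq on GRCm38.p6, another build than the authors', so no coordinate was joined to the RPKM table. Depth was estimated from the most frequent low length-corrected value, taken as that of 1 read, with GENCODE vM21 lengths found for 97.6% of rows. Calculations used Python 3.11.15, numpy 2.4.6, pandas 2.3.3 and scipy 1.17.1. A run on redrawn wild-type cells with known shifts added checked only the arithmetic of the differences, not effects of depth, chip or group. Alternatives covered the pseudocount (0.1 and 10), scaling, weighting of classes and cells, filters, rows per symbol and cells left out.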

Additional observations from a re-analysis of the deposited data

How the results depend on the processing

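The Flvcr-deleted minus wild-type median of 1.19 was 0.34 with classes A to D weighted alike, 0.35 with every cell set to 1 sum of RPKM and 3.64 with cells of 1000 to 2000 detected genes, and its 22 genes called higher were 0 and 2 in the first 2 of these. Without the class A cells of suffix d, an alternative chosen after seeing the data, classes A to D gave 24, and the class A median was 1.18 in place of -2.73 against wild-type cells and 2.48 in place of -1.01 against EPO-treated cells. The EPO-treated minus wild-type median of -1.23 was -0.23 with every cell weighted alike, -2.21 without class B and, reversed, 1.38 with cells of 1000 to 2000 detected genes, where 13 genes were called higher. There the called genes Rps10 (0.38), Rps23 (0.46), Rps26 (0.30), Rps27 (1.95), Rps27rt (1.96), Rps3a1 (0.14), Rps6 (1.46) and Rps7 (1.45) also changed sign. Its 10 genes called lower were 0 in that range and with medians over cells, 2 with a pseudocount of 10, 5 without class D, 6 with every cell weighted alike and 26 without class B. The Flvcr-deleted minus EPO-treated median of 2.49 was 1.39 without class D, and its 24 genes called higher were 3 with classes A to D, 7 with 1 sum of RPKM and 12 without the Flvcr-deleted cells with Alas2 at 0. With globins kept in the sum the share was 2.08% in Flvcr-deleted, 1.95% in EPO-treated and 2.11% in wild-type cells, a ratio of Flvcr-deleted to wild-type of 0.987 in place of 2.91. With cells of 1000 to 2000 detected genes, globins left out, the wild-type share was 1.70%. Rps3 relative to the set was -2.34 in that range. The cause of these shifts was not tested. Shares of all genes called under these alternatives are not given here, so the counts show only how the calls within the set moved.

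Leaving out each class D cell of the Flvcr-deleted or EPO-treated group in turn, also chosen after seeing the data, gave medians from 1.09 to 1.52, -1.26 to -0.89 and 2.15 to 2.65 for the 3 comparisons in the order above, with 18 to 28 called higher, 8 to 10 called lower and 24 to 25 called higher. Class D minus class B ranged from -1.59 to -0.20 in Flvcr-deleted cells, where -0.20 is the value without cell 12, and from -5.62 to -4.23 in EPO-treated cells. Of the values of single genes under the alternatives set out at the start, 1029 moved by less than the spread over genes, 243 moved by more, and 8 values of called genes changed sign. Among values of genes not called, counted in the first 2 of these, 66 also changed sign, 5 of them with 1 sum of RPKM and 9 with classes A to D weighted alike. No paired analysis was possible because no test was run and cell numbers only name cells. Depth limits what can be said of genes at 0, as in the suffix d cells, and is unknown for EPO-treated cells.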
